A study of Homo sapiens with 3 samples.

Results

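The hypoxia-inducible genes and HIF regulators described here are 10 of the 25270 gene symbols measured by RNA-seq in HepG2 liver cancer cells, and were chosen by symbol from a fixed list. The list holds the oxygen-regulated subunits of the hypoxia-inducible factor (HIF), HIF1A and EPAS1, the prolyl hydroxylases EGLN1 and EGLN3, and the HIF target genes CA9, VEGFA, ADM, ANGPTL4, BNIP3 and NDRG1. All 10 symbols were found in each library. A filter on low values, a mean of at least 1 FPKM over the 3 libraries, kept 8 of the 10 and 12210 symbols in all, and left out EGLN3 and CA9. FPKM divides the fragments of a gene by its transcript length and by the size of the library, so that levels can be set side by side between genes.

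HepG2 is an established human hepatocellular carcinoma line. The series set out to find genes tied to lactate in a glycolytic cell model, and sequenced total RNA from 3 cultures with 1 library each. Parental HepG2 (HepG2/wild) was untreated. HepG2/metR was described by the authors as the population that survived more than 5 months of metformin, an inhibitor of mitochondrial complex I. The last culture was HepG2/metR after 24 h in 40 mM oxamate, which blocks lactate dehydrogenase. All 3 cultures share the HepG2 label and were grown in the same serum-containing medium, and none was labelled as grown in low oxygen. Whether metformin was present in the medium when RNA was taken is not given in the sources used here. With n = 1 per condition none of the differences below has a replicate check, so each is a difference between libraries and carries no p-value. Differences are given as log2 of FPKM + 1, which understates the change of low genes, and a fold in FPKM is named as such. A gene was counted as past the limit when this difference reached 2-fold (1 on the log2 scale) between HepG2/metR and parental HepG2, or 1.5-fold (0.58) between oxamate-treated and untreated HepG2/metR. Where a gene is given with 3 values, they stand in the order parental HepG2, HepG2/metR, HepG2/metR with oxamate. Both comparisons use the untreated HepG2/metR library, so a deviation of that library enters both.

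The FPKM values of a library summed to 562382 for parental HepG2, to 534646 for HepG2/metR and to 473773 with oxamate. The number of reads is unknown, but the smallest values put the depth of the untreated HepG2/metR library at 1.21 times that of parental HepG2, and with oxamate at 1.24 times. A level of at least 1 FPKM was listed for 11356, 11414 and 11649 genes in the same order.

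The liver label was checked against 12 hepatocyte markers. Their summed level was 33376 FPKM in the parental library, 13.97 in the untreated and 11.3 in the oxamate-treated HepG2/metR library, and each of the 12 passed 2-fold downward in HepG2/metR. APOA2 was the most abundant of them in parental cells, at 11976 FPKM, and SERPINA1 in HepG2/metR, at 11.2 FPKM. HNF4A, a transcription factor that defines hepatocytes, was listed at 68.7, 0.0156 and 0.0153 FPKM, and ALB at 9206, 0.747 and 0.617 FPKM. In HepG2/metR 10 of the 12 markers lay under 1 FPKM, and APOA1, TTR, FGA and FGG were listed at 0. Parental HepG2 thus carried the markers of its labelled tissue, and neither HepG2/metR library did apart from SERPINA1 and FGB, the latter at 1.30 FPKM in untreated HepG2/metR. In such bulk libraries fewer cells of a type and less RNA per cell cannot be told apart. Of 10 mesenchymal markers 7 were kept. In HepG2/metR 4 of these were at least 2-fold higher and 1, FN1, lower, where 16.6% and 17.6% of all genes kept were. COL1A1, COL1A2 and COL3A1 were not kept and were within 2-fold, with log2 differences of -0.57, -0.17 and -0.048. The FPKM sums of the 10 markers were 1573, 2274 and 1709 in the same order. These sums were led by FN1 in parental cells and by VIM, at 1.23, 1576 and 1139.8 FPKM, in the others. Among the mesenchymal markers TWIST1 was listed at 0 in parental HepG2 and at 3.29 FPKM in HepG2/metR. The 5 endothelial markers summed to 2.28, 2.47 and 3.08 FPKM, with TIE1 as the most abundant and PECAM1 and CDH5 at 0 in HepG2/metR. The part of the low hepatocyte markers in the differences between HepG2/metR and parental HepG2 was not tested. Selection in metformin and any other difference between these cultures cannot be told apart. That HepG2/metR descends from the parental HepG2 culture rests on the labels and is not settled by these values, so each difference between them below is a difference between the cultures as labelled.

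As background, HIF is a heterodimer of an oxygen-regulated alpha subunit, encoded by HIF1A or EPAS1, and the constitutive partner ARNT. In the presence of oxygen the EGLN prolyl hydroxylases modify the alpha subunits, the VHL ubiquitin ligase recognises the modified protein, and the proteasome degrades it, so that an mRNA level of an alpha subunit is not a measure of its activity. When oxygen is short HIF accumulates, binds short DNA elements with the core RCGTG and raises genes for glycolysis, angiogenesis, pH control and mitophagy. In the liver the EPAS1 product is known for the control of erythropoietin and lipid metabolism.

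The sequences upstream of the transcription start are shown for 5 members because the HIF core has the spellings ACGTG and GCGTG, which can be read off directly, and because these are the members past a limit below, EPAS1, ADM, ANGPTL4 and BNIP3, together with CA9, a marker gene of hypoxic cells that was at 0 in HepG2/metR. Of the 10 members 8 matched the RefSeq promoter table (GRCh38.p14), all but VEGFA and NDRG1. Each window is the 250 bases before the start, written along the strand of the gene, and capitals mark every match of ACGTG or GCGTG, or of the same letters on the other strand, where they read CACGT and CACGC. The windows are EPAS1 at chr2:46297157-46297406 on the plus strand, CA9 at chr9:35673678-35673927 on the plus strand, ADM at chr11:10304823-10305072 on the plus strand, ANGPTL4 at chr19:8363905-8364154 on the plus strand and BNIP3 at chr10:131981924-131982173 on the minus strand.
EPAS1: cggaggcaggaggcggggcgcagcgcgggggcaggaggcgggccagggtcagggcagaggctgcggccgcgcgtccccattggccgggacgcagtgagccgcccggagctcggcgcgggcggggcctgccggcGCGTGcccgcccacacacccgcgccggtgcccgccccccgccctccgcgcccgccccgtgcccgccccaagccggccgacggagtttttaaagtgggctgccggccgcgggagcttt
CA9: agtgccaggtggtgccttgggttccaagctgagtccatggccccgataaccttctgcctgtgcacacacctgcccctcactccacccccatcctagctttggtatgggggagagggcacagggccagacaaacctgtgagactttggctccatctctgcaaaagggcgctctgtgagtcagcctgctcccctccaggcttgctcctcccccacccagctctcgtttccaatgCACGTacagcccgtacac
ADM: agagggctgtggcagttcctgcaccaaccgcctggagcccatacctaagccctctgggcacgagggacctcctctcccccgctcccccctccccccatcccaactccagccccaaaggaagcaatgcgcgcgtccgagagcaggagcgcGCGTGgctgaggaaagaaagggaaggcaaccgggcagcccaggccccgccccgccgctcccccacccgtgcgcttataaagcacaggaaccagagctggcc
ANGPTL4: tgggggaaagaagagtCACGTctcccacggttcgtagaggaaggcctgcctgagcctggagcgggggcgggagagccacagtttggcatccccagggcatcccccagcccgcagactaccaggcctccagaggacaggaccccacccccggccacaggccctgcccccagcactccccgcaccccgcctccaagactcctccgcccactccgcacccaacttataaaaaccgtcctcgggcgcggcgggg
BNIP3: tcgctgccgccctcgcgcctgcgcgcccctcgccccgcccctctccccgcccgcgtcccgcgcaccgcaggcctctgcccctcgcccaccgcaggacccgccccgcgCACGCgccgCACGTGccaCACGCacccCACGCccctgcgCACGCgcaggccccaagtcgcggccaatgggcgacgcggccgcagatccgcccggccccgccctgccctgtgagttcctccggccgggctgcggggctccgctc
The BNIP3 window held 6 matches within its central stretch, with first bases from -143 to -104 counted from the start. They were 4 of GCGTG on the other strand and 2 of ACGTG, which form a palindrome, CACGTG, counted once on each strand. EPAS1 had GCGTG at -117 and ADM had GCGTG at -101, CA9 had ACGTG on the other strand at -18, and ANGPTL4 had ACGTG on the other strand at -234. Among the members not printed, EGLN1 had ACGTG at -13 and the upstream start of HIF1A had GCGTG at -204, while EGLN3 and the downstream start of HIF1A had no match. In all, 7 of the 8 matched members had a match. Across the 35116 windows of the table, 18.5% held ACGTG, 32.2% held GCGTG, 43.2% held at least 1 of them, and 227 windows (0.646%) held at least 6 matches. A match describes the letters in the window and is not a binding site, and the windows come from another genome build than the hg19 of the expression files, which carry no coordinates.

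**Figure D1:**
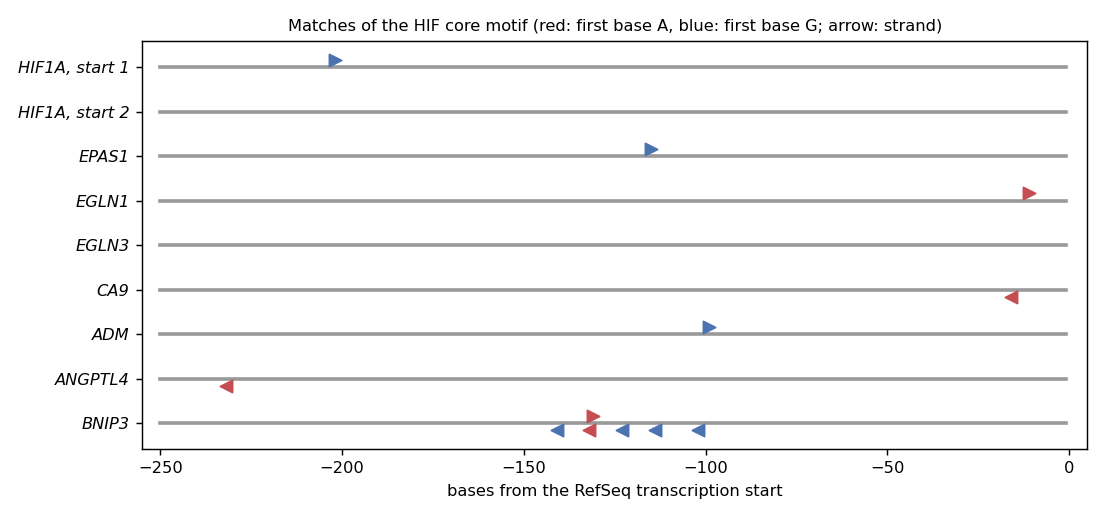
Position of each match of ACGTG (red) or GCGTG (blue) in the 250 bases before the start of each member in the promoter table, in bases from the RefSeq transcription start; arrowheads point along the strand of the match. BNIP3 has 6 matches between -143 and -104, the other windows have 1 or 0.

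Among the 8 members kept, ADM and ANGPTL4 passed 2-fold upward in HepG2/metR against parental HepG2, EPAS1 was at least 2-fold lower, and the other 5 were within 2-fold. That is 2 of 8 higher, where 16.6% of all genes kept were, and 1 of 8 lower, where 17.6% were. With oxamate, 2 of the 8, ANGPTL4 and BNIP3, were at least 1.5-fold lower than in untreated HepG2/metR, against 3.82% of all genes kept, and 0 were at least 1.5-fold higher, against 4.30%. The median log2 difference of the 8 members was -0.0022 in HepG2/metR and -0.088 with oxamate, beside 0.015 and 0.021 for all genes kept. The members therefore did not share a direction. HIF1A, EPAS1 and EGLN1 were within 1.5-fold between the HepG2/metR libraries, and the members past that limit were both target genes.

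**Figure D2:**
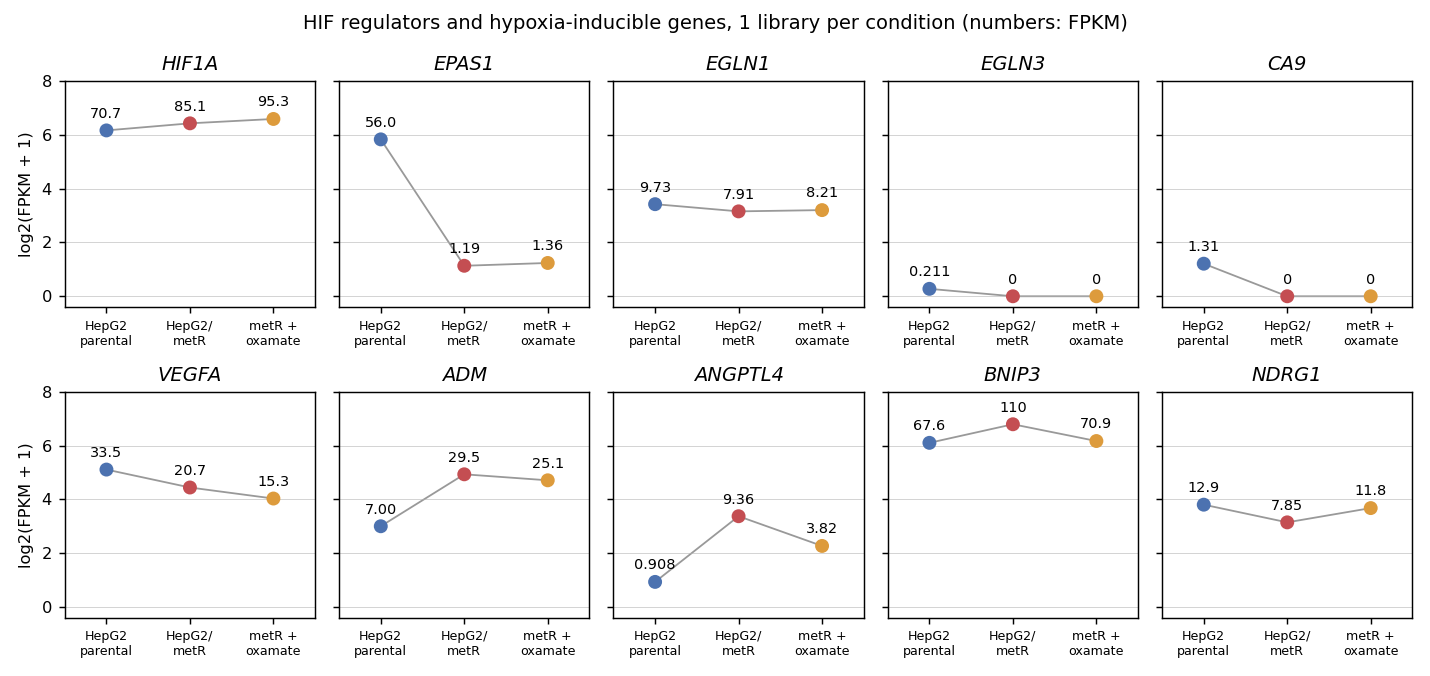
Level of each member on the log2(FPKM + 1) axis in parental HepG2 (blue), HepG2/metR (red) and oxamate-treated HepG2/metR (orange), 1 library each, with the FPKM above each point. EPAS1 goes from 56.0 to 1.19 FPKM, ADM and ANGPTL4 are higher in both HepG2/metR libraries, and EGLN3 and CA9 are at 0 there.

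HIF1A, which encodes the alpha subunit present in most tissues, was listed at 70.7, 85.1 and 95.3 FPKM. It was an abundant transcript in each library, at or above the level of 89.9%, 92.2% and 94.4% of the genes kept. The log2 difference was 0.26 in HepG2/metR and 0.16 with oxamate, within the limits in both comparisons. The antisense genes HIF1A-AS1 and HIF1A-AS2 did not exceed 0.550 FPKM in any library. EPAS1, which encodes HIF-2alpha, was listed at 56.0, 1.19 and 1.36 FPKM. It was high in parental HepG2 and near the floor of the filter in both HepG2/metR libraries, a log2 difference of -4.70 and a fold of 46.9 in FPKM. Of all genes kept, 1.74% were as far down. The hepatocyte markers were low in the same libraries, and their part in this difference was not tested. With oxamate the log2 difference was 0.10, so that the low level was found in both libraries of HepG2/metR. HIF1A was 1.26 times as high as EPAS1 in parental HepG2, 71.3 times in HepG2/metR and 70.2 times with oxamate, in FPKM. In parental HepG2 both alpha subunits were thus expressed at like levels, and in HepG2/metR the alpha subunit transcripts were nearly all HIF1A.

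The other subunits lay below HIF1A in each library. ARNT, the common partner, was listed at 7.21, 7.60 and 9.42 FPKM and its relative ARNT2 at 0.673, 1.25 and 2.005 FPKM. HIF3A, whose short forms can oppose the other alpha subunits, was listed at 0 in every library. Of the 5 subunit genes 4 were kept, and EPAS1 alone was past a limit. That is 1 of 4 lower in HepG2/metR, where 17.6% of all genes kept were. With a pseudocount of 0.1 or none 1 gene, ARNT2, was also past 1.5-fold upward with oxamate, by 1.61-fold in FPKM. The partner genes therefore stayed within 2-fold between HepG2/metR and parental HepG2, while EPAS1 was lower.

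EGLN1, the main oxygen sensor of the prolyl hydroxylases, was listed at 9.73, 7.91 and 8.21 FPKM, with log2 differences of -0.27 and 0.047. The level was alike in all 3 libraries. EGLN3, the hydroxylase gene that is itself strongly induced by HIF in many cell types, was listed at 0.211 FPKM in parental HepG2 and at 0 in both HepG2/metR libraries. It was at or near 0 throughout, and no fold is given. EGLN2, the hydroxylase that is not induced by low oxygen, was listed at 19.8, 31.8 and 26.6 FPKM, and was 2.04, 4.02 and 3.24 times as high as EGLN1 in the 3 libraries. HIF1AN, which hydroxylates an asparagine of the alpha subunits and limits coactivator binding, was listed at 14.9, 14.3 and 18.1 FPKM. P4HTM, a prolyl hydroxylase of the endoplasmic reticulum, was listed at 0.0433, 4.999 and 7.37 FPKM, a log2 difference of 2.52 between HepG2/metR and parental HepG2. Of the sensor genes it alone was at least 2-fold higher in HepG2/metR.

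Of the degradation genes, VHL and SIAH2 were past 2-fold in HepG2/metR, both downward. VHL, the recognition subunit of the ubiquitin ligase, was listed at 31.4, 13.4 and 15.5 FPKM, a log2 difference of -1.17 in HepG2/metR. SIAH2, a ubiquitin ligase that acts on prolyl hydroxylases, was listed at 27.8, 8.10 and 5.85 FPKM, a difference of -1.66, and its relative SIAH1 at 12.7, 7.59 and 6.48 FPKM. The scaffold CUL2 was listed at 11.8, 22.1 and 18.7 FPKM. The elongin genes TCEB1 and TCEB2 were listed at 42.2, 61.8 and 44.6 FPKM and at 109.8, 138 and 92.1 FPKM. RBX1, the ring subunit of the same ligase, was listed at 85.5, 60.4 and 39.3 FPKM, and at -0.61 it was the only gene of this list past 1.5-fold with oxamate, though short of the limit with equal total FPKM, at -0.44, and joined by TCEB2 under upper-quartile scaling and median-of-ratios size factors. Of the 11 sensing and degradation genes kept of 12, with EGLN1 among them, 1 was higher and 2 were lower in HepG2/metR, where 16.6% and 17.6% of all genes kept were, and 0 were higher and 1 lower with oxamate, where 4.30% and 3.82% were. Their median log2 difference was -0.060 in HepG2/metR, which turned to 0.080 under upper-quartile scaling and to 0.13 without the members. With oxamate it was -0.23, and with equal total FPKM -0.062, where 1 gene, P4HTM, was higher, at 0.63, and 0 were lower.

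The coactivators EP300 and CREBBP, acetyltransferases recruited by HIF, were listed at 9.66, 6.47 and 6.87 FPKM and at 7.18, 3.90 and 4.81 FPKM. CITED2, which competes with HIF for these coactivators, was listed at 9.49, 75.7 and 58.5 FPKM. It was 7.97 times as high in FPKM in HepG2/metR as in parental HepG2, a log2 difference of 2.87, and -0.37 with oxamate. Neither coactivator was past 2-fold in HepG2/metR, so that 1 of these 3 genes was higher and 0 were lower, where 16.6% and 17.6% of all genes kept were. With oxamate 0 of the 3 were past 1.5-fold, where 4.30% of all genes kept were higher and 3.82% lower.

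The secreted target genes differed among themselves. VEGFA, the angiogenic growth factor, was listed at 33.5, 20.7 and 15.3 FPKM, highest in parental HepG2 and lowest with oxamate. Its log2 difference was -0.67 in HepG2/metR and -0.41 with oxamate, each within its limit, and -1.08 between the oxamate-treated cells and parental HepG2. ADM, the vasodilator peptide adrenomedullin, was listed at 7.003, 29.5 and 25.1 FPKM. It was higher in both HepG2/metR libraries than in parental HepG2, by 4.21-fold in FPKM and 1.93 on the log2 scale in the untreated library, and the difference with oxamate was -0.22. ANGPTL4, a secreted inhibitor of lipoprotein lipase that responds to both HIF and PPAR receptors, was listed at 0.908, 9.36 and 3.82 FPKM. It was 10.3 times as high in FPKM in HepG2/metR as in parental HepG2 (log2 difference 2.44) and 2.45-fold lower with oxamate than without (-1.10). Of all genes kept, 0.393% were as far down with oxamate. ANGPTL4 was the only member past the limit in both comparisons, and the oxamate-treated level still lay above the parental level. The overlapping antisense gene RAB11B-AS1 was listed at 1.68, 0.338 and 0.0832 FPKM, under 1 FPKM in both HepG2/metR libraries.

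CA9, a cell-surface carbonic anhydrase and a widely used marker of hypoxic cells, was listed at 1.31 FPKM in parental HepG2 and at 0 in both HepG2/metR libraries. It was thus listed above 0, at a low level, in the parental library alone. CA9 partly overlaps ARHGEF39, listed at 4.38, 3.80 and 1.42 FPKM, and the strand of counting is not given, so reads from where they overlap cannot be told apart. CA12, the other membrane-bound carbonic anhydrase of the list, did not exceed 0.142 FPKM.

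Receptors for the secreted members were few. Of 8 receptor genes for VEGFA and adrenomedullin 1 was kept, the VEGF coreceptor NRP1, at 9.92, 35.5 and 28.4 FPKM. The tyrosine kinase receptors FLT1 and KDR did not exceed 0.403 FPKM, and the adrenomedullin receptor CALCRL did not exceed 0.0568 FPKM. RAMP2, the accessory protein that gives CALCRL its adrenomedullin preference, was listed at 1.89, 0.0601 and 0 FPKM. Also on the list, NRP2 was at 0.376, 0.709 and 0.689 FPKM and RAMP1 at 0.416, 0.0985 and 0 FPKM. Transcripts of the ligands VEGFA and ADM were therefore listed while these receptor genes lay under 1 FPKM, apart from NRP1 and, in parental HepG2, RAMP2.

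The relatives of VEGFA had another order. VEGFB, a ligand of FLT1, was listed at 3.85, 11.3 and 9.07 FPKM, and VEGFC, a lymphangiogenic factor, at 0, 7.81 and 10.3 FPKM. VEGFA was 8.68 times as high as VEGFB in parental HepG2, 1.83 times in HepG2/metR and 1.69 times with oxamate. In HepG2/metR VEGFA was lower but within 2-fold, at -0.67, and both relatives were at least 2-fold higher. VEGFA was 2.65 times as high as VEGFC in HepG2/metR and 1.49 times with oxamate. The placental growth factor PGF was listed at 11.8, 0.310 and 0.752 FPKM, a log2 difference of -3.29 in HepG2/metR. Of the relatives of ANGPTL4, ANGPTL1 was listed at 2.88, 0.0101 and 0 FPKM, and ANGPTL2 and ANGPTL6 stayed under 1 FPKM in each library.

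BNIP3, a mitochondrial receptor for mitophagy, was listed at 67.6, 109.7 and 70.9 FPKM, higher in untreated HepG2/metR than in both of the others. The log2 difference was 0.69 in HepG2/metR, 1.62-fold in FPKM and within 2-fold, and -0.62 with oxamate, 1.55-fold lower in FPKM and just past 1.5-fold. Of all genes kept, 3.09% were as far down with oxamate. The oxamate-treated and parental levels differed by 0.067 on the log2 scale. Its relative BNIP3L, also a mitophagy receptor, was listed at 10.04, 37.4 and 29.9 FPKM, a log2 difference of 1.80 in HepG2/metR and -0.31 with oxamate. BNIP3 was 6.73 times as high as BNIP3L in parental HepG2, 2.93 times in HepG2/metR and 2.37 times with oxamate. BNIP3L was thus further above its parental level than BNIP3 in both HepG2/metR libraries.

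NDRG1, a stress-responsive gene induced by low oxygen, had the opposite order, at 12.9, 7.85 and 11.8 FPKM. It was lowest in untreated HepG2/metR, with a log2 difference of -0.66 there and 0.53 with oxamate, a fold of 1.501 in FPKM that falls short of the limit on the log2(FPKM + 1) scale. The other genes of its family differed from it. NDRG2 was listed at 31.8, 0.534 and 0.327 FPKM, a log2 difference of -4.42 in HepG2/metR, NDRG4 at 4.72, 0.0647 and 0.0111 FPKM, and NDRG3 at 22.5, 25.7 and 33.8 FPKM. NDRG2, the most abundant of the family in parental HepG2, was under 1 FPKM in both HepG2/metR libraries, where NDRG3 was the most abundant. Of the 12 relatives of the members on the list 5 were kept. In HepG2/metR 2 of them were higher and 2 lower, where 16.6% and 17.6% of all genes kept were. The lower pair, NDRG2 and NDRG4, passed the filter only through the parental library, so the filter and this call are not independent. With oxamate 0 were past 1.5-fold, where 4.30% of all genes kept were higher and 3.82% lower. Without a pseudocount 2, NDRG2 and NDRG4, were past 1.5-fold downward with oxamate, by 1.63-fold and 5.81-fold in FPKM, both from levels under 1 FPKM.

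**Figure D3:**
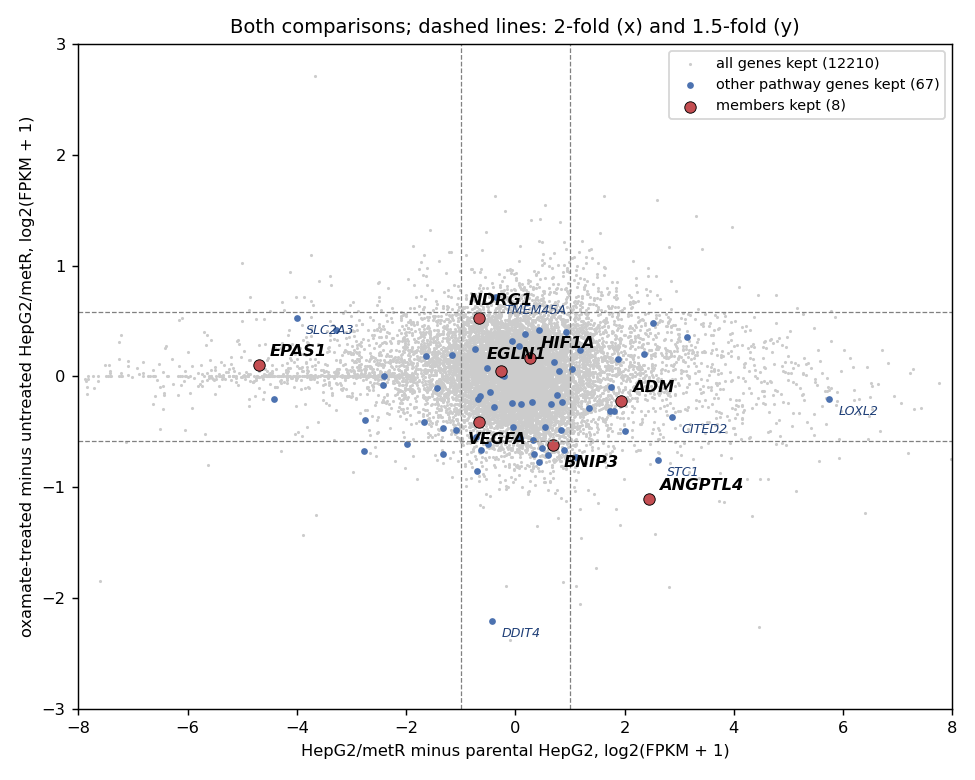
Log2 difference between HepG2/metR and parental HepG2 (horizontal) against that between oxamate-treated and untreated HepG2/metR (vertical) for 12210 genes kept (grey), 67 other pathway genes (blue) and 8 members (red), with dashed lines at 2-fold and 1.5-fold; 73 genes lie outside the axes. ANGPTL4 is the member at the lower right, at 2.44 and -1.10, and EPAS1 the member at the far left, at -4.70; the axes share the HepG2/metR library, so the slope of the cloud is not a result.

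The wider HIF pathway was followed in 85 other genes of 9 lists, of which 67 were kept. In HepG2/metR 15 of the 67 were at least 2-fold higher and 15 at least 2-fold lower than in parental HepG2, and 37 were within 2-fold, with a median log2 difference of 0.081 beside 0.015 for all genes kept. Of all genes kept 16.6% were higher and 17.6% lower. With oxamate 1 of the 67, TMEM45A, was at least 1.5-fold higher and 14 were lower, with a median of -0.23 beside 0.021, where 4.30% and 3.82% of all genes kept were past the limit. Without the glycolysis list, 50 genes were left, of which 1 was higher and 5 were lower with oxamate, with a median of -0.16.

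Of the 14 pathway genes lower with oxamate 9 were glucose uptake and glycolysis genes, and with equal total FPKM 2 of 4. All 17 genes of that list were kept. With oxamate 9 were at least 1.5-fold lower and 0 higher, where 3.82% and 4.30% of all genes kept were. The median log2 difference of the list was -0.61, beside 0.021 for all genes kept. The 9 lower genes were ALDOA, ALDOC, TPI1, GAPDH, PGK1, PGAM1, ENO1, the lactate exporter gene SLC16A3 and PDK1, whose product restrains entry of pyruvate into mitochondria. SLC2A3 was past the limit upward with equal total FPKM, at 0.68. With a pseudocount of 0.1 or none SLC2A3 was also past it upward, by 1.54-fold in FPKM, and HK2 was past it downward. PGK1, a glycolytic kinase and classical HIF target, was listed at 184, 396 and 239 FPKM, differences of 1.11 and -0.73. PDK1 was listed at 6.03, 9.65 and 5.51 FPKM. LDHA, whose product oxamate inhibits, was listed at 642, 1150.2 and 823 FPKM, -0.48 with oxamate and short of the limit. The list thus lay lower in the oxamate-treated library, with 15 of 17 log2 differences below 0, where 54.4% of all genes kept were at 0 or above. Many genes of the list are abundant, and low genes make up part of that share. Of 8971 genes with a mean of at least 5 FPKM, 271 were higher and 403 lower with oxamate. Of the 15 list genes at that level, 0 were higher and 8 lower. GAPDH, PGK1, ENO1 and LDHA have near-identical pseudogene copies, and how the authors' counting shared reads among these was not given.

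In HepG2/metR against parental HepG2 the same list had 2 of 17 genes at least 2-fold higher and 3 lower, where 16.6% and 17.6% of all genes kept were, and a median of 0.081, or 0.34 over the 15 with a mean of at least 5 FPKM. The glucose transporter gene SLC2A1 was listed at 261, 37.9 and 28.6 FPKM and SLC2A3, a transporter of higher affinity, at 92.0, 4.82 and 7.41 FPKM, differences of -2.75 and -4.00 between HepG2/metR and parental HepG2. ALDOC was also lower, at 8.49, 1.41 and 0.577 FPKM. PFKFB3, which makes the main activator of phosphofructokinase, was listed at 2.65, 17.6 and 20.4 FPKM, a difference of 2.35, and with PGK1 it was the pair past 2-fold upward. SLC2A1 and SLC2A3 were therefore lower in the glycolytic model than in parental cells, while LDHA was within 2-fold, and GAPDH, at 2308, 4303 and 2719.7 FPKM and a difference of 0.90, was within 2-fold but past it under upper-quartile scaling, at 1.05.

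Among the 10 secreted and pH genes kept, with VEGFA, ADM and ANGPTL4 among them, 5 were at least 2-fold higher and 2 lower in HepG2/metR (16.6% and 17.6% of all genes kept), with a median of 1.28. This median was 0.46 over all 12 genes, without the filter on low values, and 0.81 over the 7 kept that are not members. The collagen crosslinking enzyme gene LOXL2 was listed at 1.21, 118 and 102 FPKM, a difference of 5.75. STC1, a secreted calcium and phosphate regulator, was listed at 0, 5.09 and 2.60 FPKM, and it and ANGPTL4 were the genes of the list past 1.5-fold with oxamate, where the median was -0.21, or -0.044 with equal total FPKM. EPO, the classical HIF target of liver and kidney, was listed at 4.27 FPKM in parental HepG2 and at 0 in both others, as CA9 was. Of the genes kept of this list, those at least 2-fold lower in HepG2/metR were EPO and PGF. Both were under 1 FPKM in the HepG2/metR libraries and passed the filter only through the parental library. For them the filter and the call as lower are therefore not independent. CA9, which was not kept, was also past the limit.

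Of the 20 mitochondrial, stress and transcription targets kept, with BNIP3 and NDRG1 among them, 5 were at least 2-fold higher and 5 lower in HepG2/metR (16.6% and 17.6% of all genes kept), with a median of -0.28, and 1 was higher and 4 were lower with oxamate (4.30% and 3.82% of all genes kept), with a median of -0.20, or -0.038 with equal total FPKM, where 2 were higher and 1 was lower. DDIT4, an inhibitor of mTORC1 induced by several stresses, was listed at 35.8, 26.5 and 4.94 FPKM, 5.36-fold lower in FPKM with oxamate and -2.21 on the log2 scale. The transcriptional repressor BHLHE40 was listed at 10.7, 3.67 and 1.88 FPKM and the adenylate kinase AK4 at 19.0, 1.94 and 0.845 FPKM. BHLHE40 and AK4 passed the limit downward in both comparisons, but with equal total FPKM both fell just short of the oxamate limit of 0.585, at -0.576 and -0.582, and DDIT4 was within 2-fold in HepG2/metR. TMEM45A was listed at 10.3, 7.80 and 13.4 FPKM, a difference of 0.71 with oxamate. Those higher in HepG2/metR were BNIP3L, the MYC antagonist MXI1 at 3.67, 9.60 and 11.5 FPKM, ANKRD37 at 1.43, 3.99 and 4.21 FPKM, the lipoprotein receptor VLDLR at 0.940, 6.80 and 4.56 FPKM and the ectonucleotidase NT5E at 6.84, 27.9 and 31.2 FPKM. Besides BHLHE40 and AK4, those lower were the iron and heme genes TFRC, at 144, 67.3 and 47.9 FPKM and within 2-fold under upper-quartile scaling, and HMOX1, at 41.0, 15.8 and 11.2 FPKM, and the sterol regulator INSIG2, at 42.7, 13.0 and 14.9 FPKM.

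Of the 4 collagen modification genes, all kept, 0 were higher and 1, PLOD1, was lower in HepG2/metR, where 16.6% and 17.6% of all genes kept were. PLOD1 was listed at 90.4, 32.8 and 30.5 FPKM. With oxamate 0 of the 4 were past 1.5-fold, where 4.30% of all genes kept were higher and 3.82% lower. The medians of the list were -0.45 in HepG2/metR and -0.045 with oxamate. The latter median turned to 0.12 when the libraries were scaled to equal total FPKM. PLOD2, a lysyl hydroxylase of collagen, was listed at 48.5, 92.9 and 123 FPKM. It was past 2-fold upward in HepG2/metR under upper-quartile scaling, at 1.07, and past 1.5-fold upward with oxamate with equal totals without small-RNA genes, at 0.594. Also listed was P4HA1, a prolyl hydroxylase of collagen, at 41.5, 26.0 and 22.8 FPKM.

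**Figure D4:**
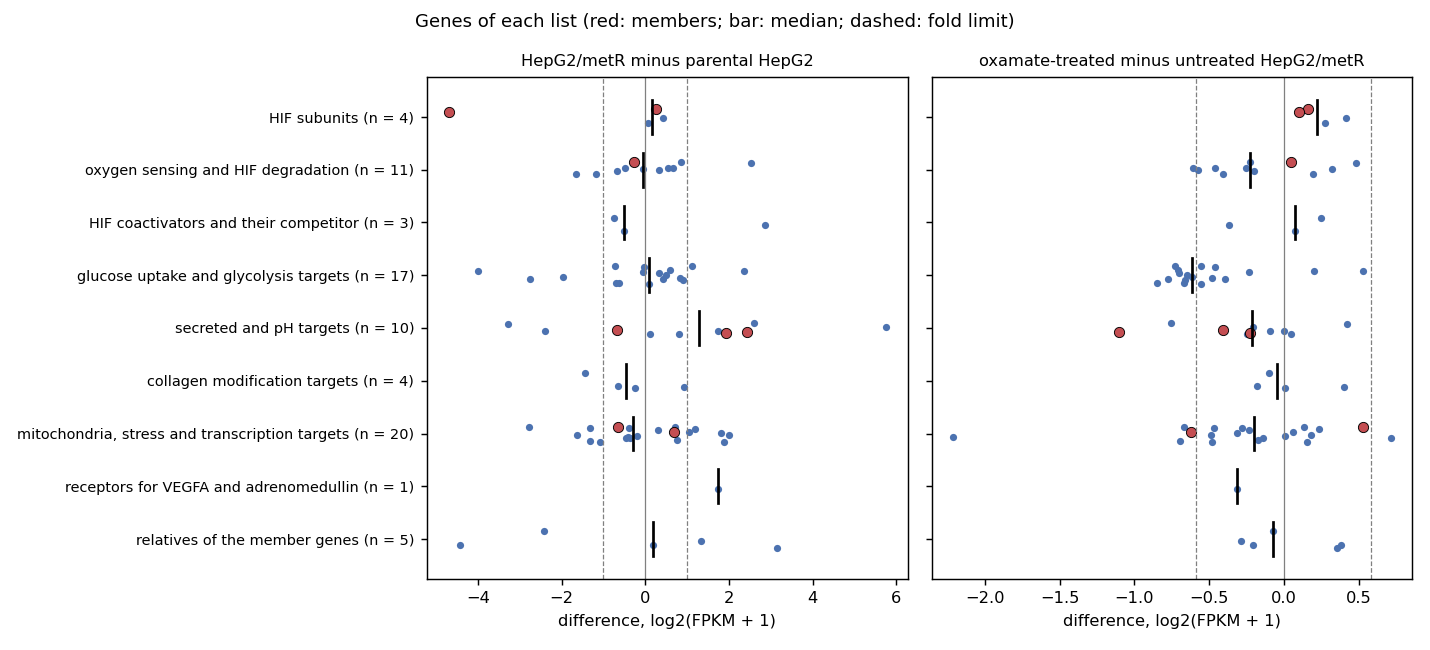
Log2 difference of each gene kept of 9 lists, with members in red, other genes in blue, the median of each list as a bar and dashed lines at the fold limit; left, HepG2/metR minus parental HepG2, right, oxamate-treated minus untreated HepG2/metR. With oxamate the glycolysis genes have a median of -0.61, and the medians of the other lists lie between -0.31 and 0.22.

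The oxamate calls of members near the limit depended on scaling. When the libraries were scaled to equal total FPKM, the median of all genes kept moved from 0.021 to 0.17 with oxamate, and the split of all genes past 1.5-fold from 525 higher and 466 lower to 1184 higher and 192 lower. BNIP3 was then at -0.45 and no longer past 1.5-fold, NDRG1 at 0.69 and past it, and ANGPTL4 at -0.96 and still past it. Relative to the median of all genes under that scaling BNIP3 was at -0.62, NDRG1 at 0.52 and ANGPTL4 at -1.13, close to the values without it. The scaling divides a library by the same factor for every gene, which moves a gene and this median nearly alike. This closeness, and that of the list medians below, thus follows from the scaling and is no check of it. The count of pathway genes lower with oxamate went from 14 to 4, DDIT4, STC1, PGAM1 and SLC16A3, and of glycolysis genes from 9 to 2, the latter pair. The glycolysis median relative to that of all genes was -0.63 as deposited and -0.64 with equal totals, that of the sensing and degradation genes -0.25 and -0.23, that of the secreted and pH genes -0.24 and -0.21, and that of the mitochondrial, stress and transcription targets -0.22 and -0.20.

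**Figure D5:**
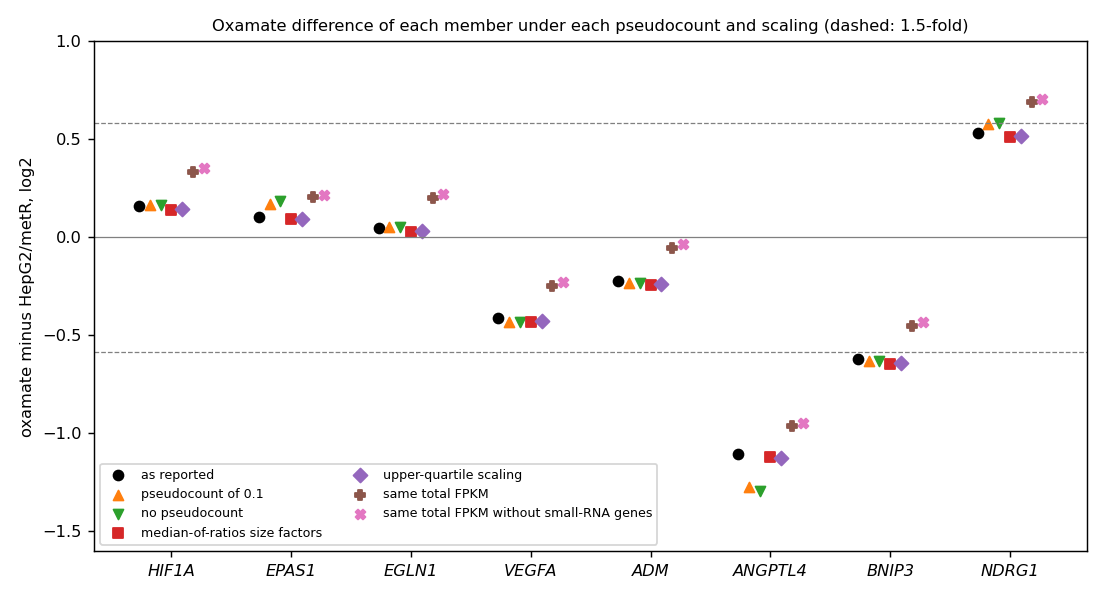
Log2 difference between oxamate-treated and untreated HepG2/metR of each member kept, as deposited (black) and under other pseudocounts and scalings, with dashed lines at 1.5-fold. ANGPTL4 lies below the lower line in every case, from -1.29 to -0.94, BNIP3 crosses it (from -0.65 to -0.43), and NDRG1 crosses the upper line (from 0.51 to 0.71).

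The genes with the pattern most like that of each member were found by the Euclidean distance between the log2(FPKM + 1) values of the 3 libraries, each gene centred on its own mean, over 6488 genes with a mean of at least 10 FPKM. For EPAS1 they were SPHK1, at 72.6, 1.93 and 2.07 FPKM and a distance of 0.036, and FAM198B, at 33.8, 0.378 and 0.504 FPKM and a distance of 0.045. This scale compresses values near or under 1 FPKM, so a short distance there does not mean a like fold in FPKM. For ADM they were NGFRAP1 at 0.049 and PBX3 at 0.056, and for VEGFA IMP3 at 0.021 and VAPA at 0.034. ANGPTL4 had no neighbour as close among these genes: the nearest were APOBEC3B, at 6.31, 39.3 and 22.2 FPKM and a distance of 0.26, and CARS at 0.31. Its own mean was 4.70 FPKM, so genes at its level were not searched. For BNIP3 they were SCNM1 at 0.027 and KPNA2 at 0.028, and for NDRG1 ATXN1L at 0.033 and PCCA at 0.044. For HIF1A they were UBE4A at 0.0097 and C1orf43 at 0.017, and for EGLN1 SCAP at 0.0054 and MFSD11 at 0.0056. The distances rest on 3 libraries and describe these only.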

How the data were processed

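The authors sequenced total RNA of parental HepG2 and of HepG2/metR with and without oxamate on an Illumina instrument, with 1 library each. STAR 2.5.1b, Cufflinks 2.2.1, FastQC 0.11.5 and build hg19 are named in the submitters' processing notes; annotation, filters and strand of counting are not given in the sources used here. The authors deposited 1 value per gene symbol on a log2 scale. The unit, log2(FPKM + 1), was inferred from the values, 100% of which, above 1, gave a number of 6 significant digits after back-transformation, within 6e-09 on the log2 scale. The deposited scaling was kept. Differences of deposited values were taken for 12210 genes whose mean FPKM reached 1, and no test was run because n = 1. The fold limits, 2 and 1.5, are those in the methods of the study, whose results text names a 2-fold cut-off only. The scale on which the study applied them is not given, and here they were applied to differences of log2(FPKM + 1). Depth is known only relative to the parental library, from values under 0.15 FPKM, so no interval was computed. Overlapping genes and near-identical copies may share fragments.

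All members were named, with the partners and relatives of each, the genes of the fixed pathway lists past a limit, up to 20 per comparison, and the 2 nearest patterns of each member. Named outside this rule, after values were seen, were LDHA, EP300, CREBBP, CA12, INSIG2, PLOD1, PLOD2, P4HA1, HMOX1, MXI1, TFRC and ANKRD37, with the marker, overlapping and antisense genes. Of the genes the rule names, 2 are not reported here by name and stay in the list counts. Members and lists were chosen with earlier results of these data known. Spreadsheet software had changed 28 symbols to dates, and these were left out by name. Alternatives were other pseudocounts, filters, scalings and fold limits. Promoters are from RefSeq (GRCh38.p14). The calculation was tested on simulated data. Python 3.11, numpy 2.4.6, pandas 2.3.3 and matplotlib 3.10.9 were used.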

Additional observations from a re-analysis of the deposited data

How the results depend on the processing

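Of 186 member differences recomputed, 52 could not be altered by the setting, because a filter leaves the value of a gene as it is or because the gene was at 0 in both libraries. Of the other 134, 123 kept their direction and their side of the fold limit, 3 no longer passed it, 8 newly passed it and 0 changed direction. Among these 134, a pseudocount cannot change a direction, and another fold limit can move only the side of the limit. The absence of changed directions was therefore fixed in advance for those settings. The 134 also include the oxamate-treated library set against parental HepG2, which is a different comparison. Of 76 recomputed counts of members or pathway genes past a limit, 56 stayed within 1.5 times. Members lower in HepG2/metR (1 as reported) were 2 without the filter on low values, which adds CA9, and 3 at a limit of 1.5-fold, with VEGFA and NDRG1. They were 2, with VEGFA, when the oxamate-treated library was set against parental HepG2, an alternative chosen after seeing the data. Members higher in HepG2/metR (2 as reported) were 1, ADM, at a mean FPKM of at least 5, where ANGPTL4 was not kept. Members lower with oxamate (2 as reported) were 1 at a mean FPKM of at least 5 (BNIP3), and 1, ANGPTL4, with equal totals, with equal totals without small-RNA genes, and at a 2-fold limit. Members higher with oxamate (0 as reported) were 1, NDRG1, without a pseudocount and with equal totals, with or without small-RNA genes. Pathway genes higher with oxamate (1 as reported) were 4 with a pseudocount of 0.1 or with none, 3 with equal totals, 4 with equal totals without small-RNA genes and 0 at a 2-fold limit. Pathway genes lower with oxamate (14 as reported) were 4 with equal totals, 3 without small-RNA genes as well and 1 at a 2-fold limit. Pathway genes higher in HepG2/metR (15 as reported) were 24 at a 1.5-fold limit. The counts at another limit or filter moved through that limit or filter itself, and for the others the cause was not tested beyond the shift of the median of all genes, to 0.17 with equal totals with oxamate and to 0.15 under upper-quartile scaling in HepG2/metR. No paired analysis was possible because each group has 1 library. Fragment counts were not used here, so low genes such as EGLN3 and CA9 have no interval.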

Other observations

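The following families were chosen after values had been seen, and no test was run on them. Enzymes of the same class as the EGLN hydroxylases, which use oxygen and 2-oxoglutarate, include the JmjC histone demethylases and the TET enzymes that oxidise methylcytosine. Of 19 such genes 17 were kept, and in HepG2/metR 0 were at least 2-fold higher than in parental HepG2 and 1, KDM7A, was lower, at 4.68, 1.05 and 1.99 FPKM, where 16.6% and 17.6% of all genes kept were. Without the filter TET1, at 1.79, 0.0752 and 0.157 FPKM, was lower too, with a pseudocount of 0.1 or none KDM4C was, and at a mean of at least 5 FPKM 0 were. With oxamate 15 of the 17 log2 differences were above 0, where 54.4% of all genes kept were at 0 or above. The median was 0.19 beside 0.021 for all genes kept. The count was 14 under upper-quartile scaling and under median-of-ratios size factors, and 17 with equal totals. PHF8 was listed at 8.34, 7.37 and 12.7 FPKM and TET3 at 4.63, 4.53 and 7.73 FPKM, differences of 0.71 and 0.66 with oxamate, and these were the genes of the family past 1.5-fold, where 4.30% of all genes kept were, joined by KDM7A with equal totals and with a pseudocount of 0.1 or none. KDM3A, a demethylase gene that is itself a HIF target, was listed at 13.95, 12.0 and 12.0 FPKM.

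Of the sestrins, SESN2, a leucine sensor upstream of mTORC1, was listed at 7.18, 16.5 and 7.56 FPKM, differences of 1.10 and -1.03, while its relative SESN1, a p53 target, was listed at 15.2, 3.80 and 5.44 FPKM and SESN3 at 0.929, 0.0257 and 0.0461 FPKM, both lowest in untreated HepG2/metR. Of the pyruvate dehydrogenase kinases, PDK3 was listed at 2.31, 2.08 and 0.975 FPKM and PDK2 at 11.8, 8.92 and 9.46 FPKM. PDK1 and PDK3 were past 1.5-fold lower with oxamate and just short of it with equal totals, at -0.559 and -0.548. Of 15 carbonic anhydrase genes 3 were kept. The mitochondrial CA5A, a liver gene, was listed at 12.7 FPKM in parental HepG2 and at 0 in both HepG2/metR libraries, CA11 at 1.11, 4.16 and 6.64 FPKM and CA13 at 2.68, 1.496 and 1.98 FPKM. CA9 and CA14, at 1.71 FPKM in parental HepG2, were also at 0 in both HepG2/metR libraries.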
